A study of Macaca mulatta with 23 samples.

Results

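The 23 rhesus monkeys (Macaca mulatta) of this data set carry 2 styles of animal identifier, and the question here was whether DNA methylation differed between them. The identifiers of 12 animals start with r and those of 11 start with B. All 23 animals of the data set fall into one of these groups by the first letter of the sample title, but the labels do not say what the letters stand for and name no batch. Methylation had been measured by reduced representation bisulfite sequencing, which cuts genomic DNA with MspI and so favours CpG-rich fragments, with 1 library per animal. The tissue is labelled as amygdala, central nucleus, and it holds many cell types, so a shift in cell makeup and a shift within cells cannot be told apart. The study related these levels to anxious temperament, a score of anxious behaviour and physiology, with age as the covariate. No treatment or genotype is given for either group. The r animals were 1.18 to 1.45 years old with a mean of 1.26 ± 0.0829 years (SD, n = 12), and 6 gave left and 6 right tissue. The B animals were 1.1 to 2.13 years old with a mean of 1.42 ± 0.29 years (SD, n = 11), and 5 gave left and 6 right tissue. The difference in age did not pass a 2-sided permutation test (p = 0.0705, adjusted p = 0.141 over age and score). The mean temperament score was -0.0425 ± 0.741 (SD, n = 12) in r and 0.188 ± 0.752 (SD, n = 11) in B animals (permutation p = 0.464, adjusted p = 0.464).

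Bisulfite converts unmethylated cytosines so that they are read as thymine. A cytosine that an animal carries as thymine is therefore read as unmethylated, and the level at such a site can follow the number of chromosome copies with the change: near full, near the middle, or near nothing. A base change within a CpG also removes the methylation target on the opposite strand, while CpGs a few bases further along are left as they were. Differences in methylation proper, by contrast, are commonly shared by neighbouring CpGs, because methylation is set and lost over stretches of DNA. For this reason the differences between r and B animals were read at single positions and over runs of positions. Positions are given in the human build hg19, the build named in the submitters' processing notes. The table gives levels without read counts, so the depth behind each value is unknown.

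None of 7 overall library measures passed a test between the groups, and the 2 libraries treated as poor both belong to r animals. Values were missing at 10.1% ± 14.2 (SD, n = 12) of the 444312 positions in r animals and at 4.86% ± 5.14 (SD, n = 11) in B animals (permutation p = 0.292, adjusted p = 0.823 over 7 measures). The r mean was raised by r09006, with 49.7% missing, and r09060, with 21.2%. Without these libraries the r animals averaged 5.02% ± 5.41 (SD, n = 10). Missing values also reached 18.3% in BE60, 15.7% in r09019 and 14.2% in r09076, which were kept. At positions with a mean level of 20% to 80%, 38.6% of the values of r09060 and 13.9% of those of r09006 were exactly 0 or 100%, and the other r animals ran from 1.68% to 6.27% and the B animals from 1.85% to 7.95%. The mean level at the 160349 positions with a value in every animal was 19.8% ± 0.554 (SD, n = 12) in r and 19.7% ± 0.462 (SD, n = 11) in B animals, a difference of 0.114 percentage points (permutation p = 0.595, adjusted p = 0.823). These means lay between 19% and 20.5% in r and between 19% and 20.3% in B animals.

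Single chromosomes gave the same picture. The mean deviation of an animal from the position means differed between r and B animals by -0.234 to 0.204 percentage points over the 24 chromosomes, and 0 of them passed (smallest adjusted p = 0.912 by permutation). The r mean was above the B mean on 22 of 24 chromosomes, and on 24 of 24 without BD60, the oldest animal. Chromosomes of the same animals are not independent, and the genome-wide difference was 0.0995 points (permutation p = 0.705, adjusted p = 0.823). Positions with low, middle and high mean levels differed by 0.128, -0.108 and 0.175 points, each with an adjusted p of 0.823 or higher. The median SD over tested positions was 5.72 points among r animals without the poor libraries and 5.77 points among B animals, and 7.3 points over all r animals. No whole-genome shift between r and B animals was detectable with these libraries.

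Single positions were compared with a linear model in limma that held age and temperament score as further terms. Of 192151 tested positions, 0 passed at a Benjamini-Hochberg adjusted p under 0.05, and the smallest adjusted p in limma was 0.124. An unadjusted p under 0.05 was reached by 6595 of them (3.43%). The 1079 with an unadjusted p under 0.01 (0.562%) are called the leading positions; 714 had higher levels in r animals (0.372% of those tested) and 365 higher levels in B animals. The share with higher levels in r animals was 66.2% among the leading positions and 57% among all tested positions. It depended on the model: without age and score as terms it was 51.6% of 1001 leading positions, and with the mean level of each animal as a further term 55.1% of 990. The levels of r and B animals did not overlap at 1 position (0.00052% of those tested).

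Levels fell into separate classes at the position that ranked first, on chromosome 18 at 3879216 (18p11.31). In r animals they ran from 0 to 60% with a median of 1%, and in B animals from 40 to 100% with a median of 58%. Of the 12 r animals, 10 stood at 8% or less and the other two, r09051 and r09081, at 48% and 60%. Of the 11 B animals, 6 stood between 40% and 58% and 5 between 95% and 100%. The groups overlapped only through r09051 and r09081, and r09081 lay just above the 6 lower B animals. The adjusted difference was -64.4 ± 9.59 percentage points (r minus B, SE, n = 23; limma adjusted p = 0.124). It passed without r09081, at -67.8 points (limma adjusted p = 0.00375), and with no other single animal left out. Nearby positions did not share it. At the nearest, 6 bases before, the means were 53.4% in r and 50.9% in B animals, and 7 bases after they were 97.8% and 97.6%. The largest difference within 50 bp was 11.6 points, in the opposite direction, 12 bases before. The median over the 10 positions 2 to 50 bp away was 1.35 points.

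A position on chromosome 12 at 111758225 (12q24.12) had levels of the same kind. In r animals they ran from 0 to 55% with a median of 0%, and 6 of 11 stood at 0%. In B animals they ran from 48% to 96% with a median of 56%, and 3 stood at 94% or 96%. The groups overlapped between 48% and 55%. The adjusted difference was -44.8 ± 8.84 points (SE, n = 22; limma adjusted p = 0.941). The opposite strand of the same CpG, 1 bp away, differed by -24.6 points, and the 13 positions 2 to 50 bp away by a median of -0.55 points. Their mean levels were high in both groups at most of these sites and near 0 at the pair just after.

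In band 1q32.2 both strands of a CpG on chromosome 1, at 208390221 and 208390222, differed by -55 ± 11.1 and -54.3 ± 10.2 points (SE, n = 21 each; limma adjusted p = 0.941 for both). At 208390221 every B animal stood at 94% or more, while r animals ran from 0 to 100% with a median of 49%. Of 11 r animals, 3 stood at 5% or less, 6 between 30% and 57%, and 2 at 92% and 100%. The value of 100% belonged to r09060, whose level at the adjacent 208390222 was 0. Without the poor libraries r09060 and r09006 the difference at 208390221 was -61.4 ± 9.49 points (SE, n = 20; limma adjusted p = 0.403). The positions 2 to 50 bp away differed by medians of -0.65 and -0.769 points.

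The opposite direction was seen on chromosome 2 at 97401372 (2q11.2) and on chromosome 16 at 56489051 (16q12.2). At 97401372 r animals ran from 41% to 100% with a median of 91%, and B animals from 0 to 100% with a median of 27%. BE75, at 100%, was the only B animal within the upper part of the r range, and the others stood at 48% or less. The difference was 58.4 ± 12.1 points (SE, n = 21; limma adjusted p = 0.941), against a median of 5.2 points at the 2 positions 2 to 50 bp away. At 56489051 r animals ran from 52% to 100% with a median of 67%, and B animals from 0 to 71% with a median of 44.5%. The difference there was 42.9 ± 8.67 points (SE, n = 21; limma adjusted p = 0.941). Of 10 B animals, 3 stood at 0%, and no r animal stood below 52%.

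**Figure D1:**
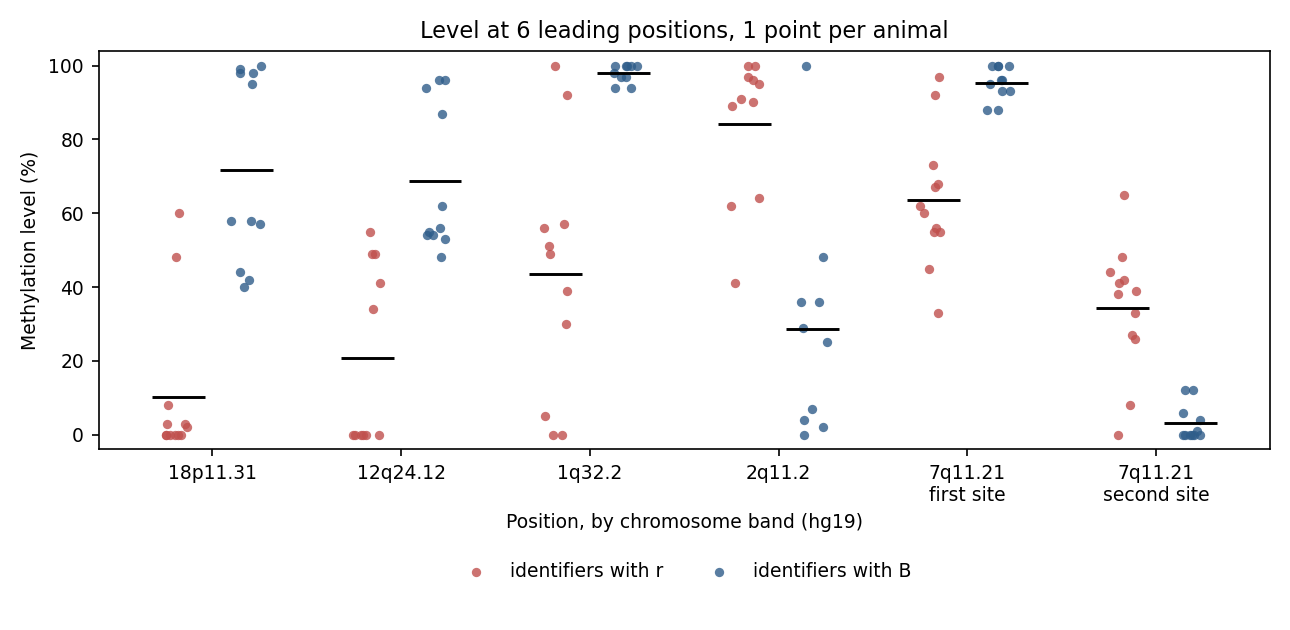
Methylation level in percent (vertical axis) at 6 of the positions with the smallest p, named by chromosome band, with 1 point per animal and a black line at each group mean (red, identifiers with r; blue, identifiers with B). At 18p11.31 the r animals lie at 0 to 60% and the B animals at 40 to 100%, and at the 2 sites of 7q11.21 most r animals lie in the middle while B animals lie near the ends.

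A run in band 7q11.21 showed a further pattern, in which near neighbours differed by like amounts in opposite directions. On chromosome 7 at 66851013 r animals ran from 33% to 97% with a median of 61%, and B animals from 88% to 100% with a median of 96%. The difference was -31.1 ± 6.09 points (SE, n = 23; limma adjusted p = 0.941). At 66851058, 45 bp on, r animals ran from 0 to 65% with a median of 38.5% and B animals from 0 to 12% with a median of 0%, a difference of 29.9 ± 5.83 points (SE, n = 23; limma adjusted p = 0.941). The levels at these positions summed to between 93% and 100% in each of the 23 animals, with a median of 100%. At 66851101, 88 bp from the first, the level was within 6 points of that at 66851013 in each of 22 animals with both values, and the difference was -28.9 points. In 10 of 12 r animals the 2 named positions stood between 26% and 73%. The other two, r09020 and r09076, lay within or close to the B range, and no B animal had a middle level. The positions in between and after, at 66851047 and 66851107, differed by 5.65 and 0.226 points.

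The remaining 4 of the 10 positions with the smallest p had smaller differences, with r animals near an end of the scale. On chromosome 10 at 50223388 (10q11.23) r animals averaged 95.5% ± 4.57 (SD, n = 11) and B animals 83.9% ± 8.64 (SD, n = 9). Adjusted for age and score, they differed by 15.3 ± 2.6 points (SE, n = 20; adjusted p = 0.825 in limma). On chromosome 16 at 70954810 (16q22.2) r animals averaged 99% ± 1.76 (SD, n = 10) and B animals 87.2% ± 9.11 (SD, n = 10). On chromosome 17 at 74623950 (17q25.1) the means were 92.6% ± 5.78 (SD, n = 10) and 74.7% ± 11.9 (SD, n = 10). On chromosome 2 at 10188668 (2p25.1) they were 2.18% ± 3.16 (SD, n = 11) and 11.2% ± 7.76 (SD, n = 9). The limma adjusted p of the last 3 was 0.941. At each of these 4 positions the groups overlapped, and the B animals had the wider spread.

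To separate genotype-like positions from the rest without reference to the identifiers, a position was called genotype-like when its levels spanned at least 40 points and had a gap of at least 25 points with 2 or more animals on each side, in the 21 animals without r09006 and r09060. By this rule 2498 tested positions were genotype-like, 1.3% of those tested. Across those 21 animals, their levels followed positions 1 bp away (median Pearson r = 0.651 over 647 pairs). They followed positions 2 to 50 bp away less closely (median r = 0.15 over 10672 pairs). At the other tested positions these values were 0.184 over 71463 pairs and 0.249 over 1007550 pairs. A position 1 bp away is mostly the opposite strand of the same CpG, but where CpGs adjoin it can belong to the next one. The 647 pairs came from 624 positions. Pairs share animals and libraries, so these are descriptions. The rule left out some positions with a spread of middle levels, among them the 7q11.21 positions and 208390222 on chromosome 1.

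Genotype-like positions made up 6.86% of the leading positions, 74 of 1079. Their share was 5.92% of 1486 leading positions when r09006, r09060 and BD60 were left out, where it was 1.63% of those tested. The leading positions of other terms fitted to the same animals also held more of them than the tested positions did: 3.5% of 915 for the temperament score, 3.81% of 1837 for age and 4.73% of 972 for hemisphere. These terms share animals with the comparison of r and B animals, and no test of the differences among them was made. The 74 differed by a median of 32.7 points in size, against 11.1 points at the other 1005 leading positions, and 46 of the 74 had higher levels in r animals.

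Most genotype-like leading positions did not share their difference with the median of their neighbours. At the 74 positions, the median difference of the positions 2 to 50 bp away was -0.00131 of the difference at the position itself, and in 37 of 74 it had the same sign. In 67 of the 74 (90.5%) it was under 0.25 of it. A position 1 bp away, mostly the opposite strand of the same CpG, was measured at 21 of them and had the same sign in 19, with a median of 0.219. At the other leading positions the median was 0.14, with the same sign in 701 of 958 (73.2%) and a neighbour difference of more than 0.5 of the position's own in 146 (15.2%). Over all tested positions the sign was the same in 58.9%, 62.5% were under 0.25 and 26.6% over 0.5. Over all tested genotype-like positions these shares were 56.6%, 72% and 18.6%. The share over 0.5 was thus lower at leading positions than over all tested positions, where many differences are close to 0. For leading positions of the temperament score, the median was 0.0897 and the sign was the same in 69.4%. Values at neighbours come in part from the same reads, and the position itself was picked for a large difference, so a fraction below 1 is built into this comparison. The class rule also asks for a wide span of levels, which by itself can lower the fraction at genotype-like positions relative to the others.

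**Figure D2:**
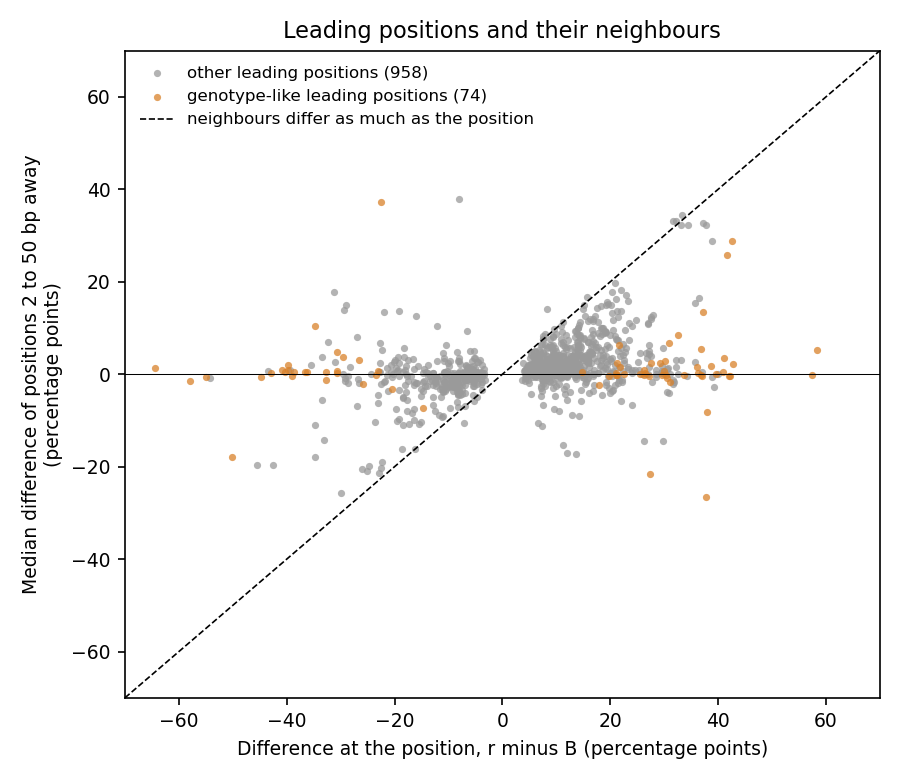
Difference between r and B animals in percentage points at each leading position (horizontal axis) and median difference of the positions 2 to 50 bp away (vertical axis), for 74 genotype-like positions (orange) and 958 others (grey) that have such neighbours. Most orange points lie along the horizontal line at 0, far from the dashed line of equal differences, and grey points lie on both sides of 0.

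Most leading positions had no other leading position within 200 bp. With gaps of up to 200 bp they formed 942 clusters, of which 842 held a single position, 75 a pair and 25 at least 3 positions. Only 0.562% of the tested positions were leading, and how many would lie alone if scattered was not computed. The counts therefore do not tell whether leading positions were more or less grouped than scattered ones. Among the 100 clusters of 2 or more, all members had the same direction in 79. Of the 74 genotype-like leading positions, 46 had no other leading position within 200 bp, a lower share than the 842 of all 1079 leading positions. By level, 47% of the leading positions had a mean over 80%, against 30.5% of the tested positions, and 21.1% a mean under 20%, against 39.4%. At the high positions 430 of 507 had higher levels in r animals, and at the low positions 57 of 228. These shares were not computed for all tested positions of the same levels. Nor were they computed without r09006 and r09060, the r libraries with the most values at exactly 0 or 100%. Leading positions were less common in the longest runs: 0.393% of tested positions in runs of 50 or more, against 0.774% in runs of 3 to 9. On the X chromosome 39 of 5951 tested positions were leading (0.655%), and on the Y chromosome 0 of 227.

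Whole runs were compared next. Neighbouring positions no more than 200 bp apart were joined, and those joined in groups of 3 or more formed a region. Its level in an animal was the average deviation from the position means plus the regional mean. A missing position was thus taken at the mean deviation of the animal's other positions in the region, which can shift the level. Of 18911 regions tested with limma, 0 passed (smallest adjusted p = 0.379), 725 had an unadjusted p under 0.05 (3.83%) and 121 an unadjusted p under 0.01 (0.64%). Of these 121 leading regions, 90 had higher levels in r animals (0.476% of those tested) and 31 higher levels in B animals. The share was 74.4%, against 58.1% of all tested regions, and 62.7% without age and score as terms and 60.3% with the mean level as a further term.

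The leading regions ranged from runs that differed at most positions to runs that differed mainly at a single CpG. In the median leading region 81.8% of the positions had the direction of the region, and in 31 of 121 all had it. Removing the most different position left a median of 0.76 of the regional difference, and less than 0.5 of it in 25 regions. A genotype-like position lay in 19 of the 121 (15.7%), against 10.9% of all tested regions, and in 14 it was the most different position. When genotype-like positions were removed before the regional levels were formed, 122 regions were leading, of which 109 were among the 121.

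First in rank among regions stood 17q21.32, where 11 positions span chromosome 17 from 45612773 to 45612910. Its level ran from 43.5% to 63.1% in r animals with a median of 49%, and from 32.4% to 50.4% in B animals with a median of 38.8%. All 10 r animals with a value stood above the B median, and 5 of them above every B animal. The adjusted difference was 14.5 ± 2.6 points (SE, n = 21; limma adjusted p = 0.379). It was spread over the run: 9 of 11 positions had its direction, and without the most different position, at 45612809 with 36.6 points, the mean difference was 12.1 points against 14.3 over all positions. No position of the run was genotype-like. r09006 and r09019 had too few values for a level, and without r09006, r09060 and BD60 the difference was 15.6 ± 2.7 points (SE, n = 19; limma adjusted p = 0.434).

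The 5 longest leading regions had 24 to 35 positions and smaller differences than 17q21.32. On chromosome 20 from 44856147 to 44856275 (20q13.12), a run of 28 positions averaged 35.2% ± 5.48 (SD, n = 12) in r and 40.9% ± 3.12 (SD, n = 11) in B animals. Of 12 r animals, 11 stood below the B median and 9 below every B animal, while r09012, at 50.2%, stood above every B animal. The adjusted difference was -6.29 ± 2.08 points (SE, n = 23; limma adjusted p = 0.984), and 23 of 28 positions had its direction. On chromosome 3 from 126359040 to 126359249 (3q21.3), 35 positions averaged 71.3% ± 3.22 (SD, n = 12) in r and 66.5% ± 3.61 (SD, n = 11) in B animals, with 8 of 12 r animals above every B animal. The difference was 5.88 ± 1.42 points (SE, n = 23; limma adjusted p = 0.984), in 29 of 35 positions. On chromosome 14 from 57271037 to 57271236 (14q22.3), 26 positions averaged 28.1% ± 4.87 (SD, n = 11) and 22.8% ± 3.9 (SD, n = 11), and 25 of 26 positions were higher in r animals. On chromosome 4 from 126238848 to 126239639 (4q28.1), 30 of 35 positions were higher in r animals and the difference was 3.39 ± 1.16 points (SE, n = 22; limma adjusted p = 0.984). That difference was uneven, with single positions up to 17.4 points, all the larger ones towards the end of the run. On chromosome 22 from 31503124 to 31503466 (22q12.2), 16 of 24 positions were higher in r animals, and the difference was 2.19 ± 0.707 points (SE, n = 21; limma adjusted p = 0.984). Levels of this run were near the floor, at 5.59% ± 1.54 (SD, n = 10) in r and 3.73% ± 1.3 (SD, n = 11) in B animals. From 31503405 on the median was 0% in both groups at every position, so higher means there came from a few animals.

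In 1q32.2 and 2q11.2 most of the difference came from a single CpG. In the former, the 14 positions of chromosome 1 from 208390186 to 208390364 differed by -8.52 ± 1.79 points (SE, n = 21; limma adjusted p = 0.984), but they include the CpG at 208390221 and 208390222, where the differences were -55 and -54.3 points. At the other 12 positions they lay between -3.93 and 1.96 points. In 2q11.2, the 7 positions of chromosome 2 from 97401302 to 97401433 differed by 11.1 ± 2.58 points (SE, n = 21; limma adjusted p = 0.984), and without 97401372 by 3.18 points. On chromosome 9 from 116973305 to 116973476 (9q32), 18 positions differed by 6.36 ± 1.54 points (SE, n = 21; limma adjusted p = 0.984), in 14 of 18 positions. Without a genotype-like position of 37.5 points at 116973475 its mean difference was 4.92 points against 6.73, a share of 0.731 that lies near the median of the leading regions.

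**Figure D3:**
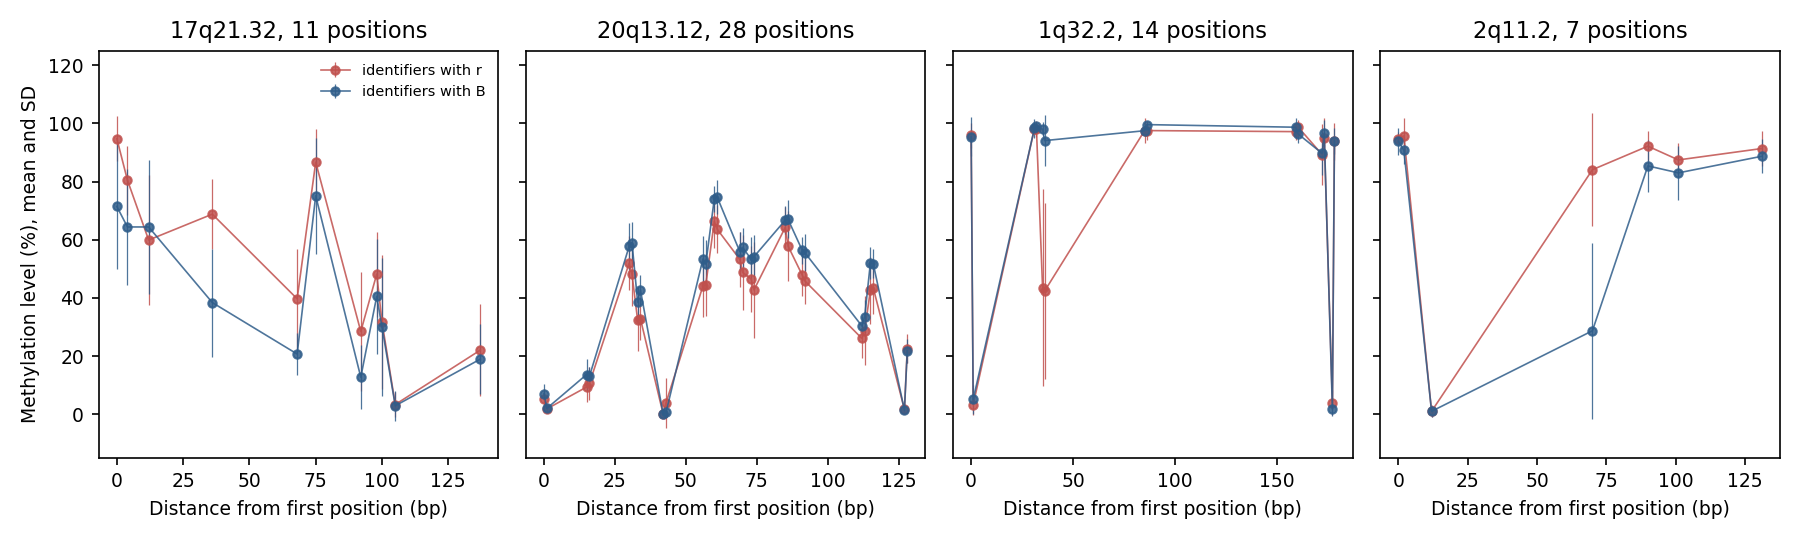
Mean level in percent with SD (vertical axis) of r animals (red) and B animals (blue) at each position of 4 leading regions, by distance in bp from the first position. The 17q21.32 and 20q13.12 runs differ over much of their length, and the 1q32.2 and 2q11.2 runs mainly at a single CpG.

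The remaining regions among the 10 with the smallest p had 3 to 5 positions and limma adjusted p of 0.984. Those of 20p13, 4q32.3, 8q24.21 and 20q11.21 were higher in r animals by between 4.65 and 12.9 points. In Xq25, 3 positions of the X chromosome from 123222683 to 123222755 differed by -18.4 ± 4.81 points (SE, n = 21), though the last of them differed by 13.6 points the other way. There BF39 had a centred level of 102%, beyond the end of the scale because its missing position was taken at the mean deviation of the others. Without BF39 the difference was -10.9 points. The B animals ran from 43.7% upward and the r animals from 28.3% to 52.3%.

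The leading region with the largest difference, singled out after its values were seen, held differences of one direction at every position. It lies on chromosome 3 from 89440785 to 89440879 (3p11.1), holds 7 positions and ranked 16 by p. Its level ran from 57.1% to 93.7% in r animals with a median of 79.6%, and from 2.43% to 95.9% in B animals with a median of 58.9%. BF10 stood at 2.43%, BE75 at 10.9% and BF39 at 22.6%, while BE50 stood at 95.9%. The SD was 12.1 points (n = 12) among r and 34.3 points (n = 10) among B animals. The adjusted difference was 33.9 ± 9.37 points (SE, n = 22; limma adjusted p = 0.984), and all 7 positions had its direction, with differences from 25.8 to 42.5 points. Positions did not move together in every animal: r09060 was listed at 0 at 3 of the 7 positions and at 100% at the other 4. The groups overlapped over the whole r range, and the B animals were spread nearly from end to end.

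The comparison was repeated without r09006 and r09060, without BD60, and without all of them. In each case 0 positions and 0 regions passed with limma. The leading positions numbered 1396 (0.678%), 1120 (0.581%) and 1486 (0.719%), and the leading regions 148 (0.708%), 118 (0.623%) and 155 (0.739%). The lists shared many but not all members: 620 of the 1079 leading positions, or 57.5%, were leading without the poor libraries, making up 44.4% of that list. Without BD60 864 were (80.1% and 77.1%), and without all of them 598 (55.4% and 40.2%). Every shared position had the same direction, which was nearly fixed in advance because the sets share most of their animals. At chromosome 18, 3879216, the difference was -61.5 ± 10.2 (SE, n = 21; limma adjusted p = 0.403), -63 ± 9.78 (SE, n = 22; 0.294) and -60.1 ± 10.4 points (SE, n = 20; 0.627).

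Whether animals with the same letter were closer to each other was read from pairs. The distance between 2 animals was taken as the mean absolute difference in level, in the 21 animals without r09006 and r09060. At the 2498 genotype-like positions it averaged 25.6 points over 45 pairs within r, 26.3 points over 55 pairs within B and 26.3 points over 110 pairs between the groups. Pairs between groups were 0.347 points farther apart than pairs within (2-sided permutation p = 0.0592, adjusted p = 0.118 over both classes of position). At the 189653 other tested positions the difference was -0.0616 points (permutation p = 0.384, adjusted p = 0.384). The first value depended on the choices made, and the p-values of the alternatives that follow are unadjusted. It was 0.389 points with all 23 animals (permutation p = 0.0314), 0.359 without BD60 as well (permutation p = 0.0524), and 0.496 at the 515 positions with a gap of at least 40 points (permutation p = 0.026). It was 0.277 points without r09076 (permutation p = 0.152), an alternative chosen after that animal was seen to lie farthest from the rest, at 30.1 points on average. The distances within and between groups overlapped almost fully, from 21.6 to 31 points within r, 21.2 to 31.4 within B and 22.6 to 33.2 between.

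At genotype-like positions the nearest animal belonged to the same group for 8 of 10 r and 7 of 11 B animals. The count for B animals was 4 of 10 without BD60. At the other tested positions this held for 3 of 10 r and 5 of 11 B animals. With 10 r and 11 B animals, a nearest animal of the same group would often be met without any grouping, and no expected count was computed. At genotype-like positions r09061 was the nearest animal of r09019, r09020 and r09051 and also of BE75, so the counts are not independent. The animals differ in missing values (0.751% to 18.3% among these 21), and the part of this in the counts was not tested.

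**Figure D4:**
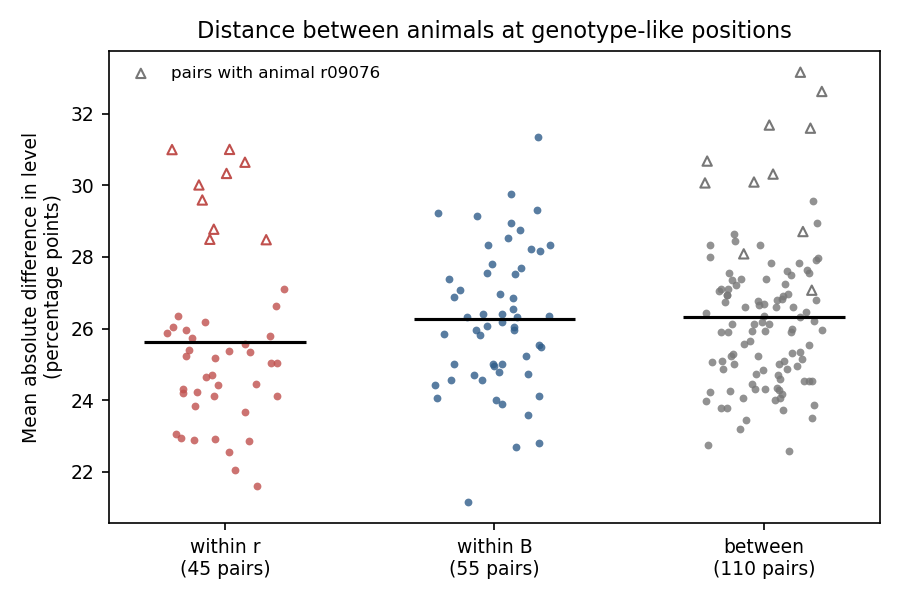
Mean absolute difference in level in percentage points (vertical axis) between pairs of animals at 2498 genotype-like positions, for pairs within r, within B and between, with a black line at each mean and open triangles for pairs that include r09076. The means of 25.6, 26.3 and 26.3 points lie close together and the points overlap.

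A lost MspI site removes a whole fragment from such a library, so missing values were compared as well. Every position in the table had a value in at least 17 of the 23 animals. In the 21 animals without the poor libraries, 85055 positions lacked a value in at least 3 animals, and Fisher's exact test passed at 0 of them after adjustment (smallest adjusted p = 1). The smallest p that occurred was 0.0124, and few animals could lack a value at any position of the table. Over 85055 tests such p-values could hardly pass adjustment, so the 0 does not show that presence was alike. An unadjusted p under 0.05 was found at 605 positions (0.711%), 460 with more values missing in r and 145 with more missing in B animals. These counts rest on unlike numbers of missing values, since there were 10 r and 11 B animals. By Fisher's exact test, 4 values missing in r alone gave p = 0.0351, as did 5 missing in B alone. With at least 5 missing in 1 group alone, the counts were 69 for r and 145 for B animals. Without BD60 as well, the counts with p under 0.05 were 74 and 89. The 605 positions lay in 193 runs, and 463 of them in 89 runs of at least 3 positions. In 6p21.2, a stretch with 14 positions, chromosome 6 from 39281105 to 39281195 and singled out after its values were seen, lacked values in 5 of 10 r animals and in 0 of 11 B animals at every position. In 17q25.3, the 11 positions of chromosome 17 from 75421193 to 75421313 lacked values in 5 B animals and in 0 r animals.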

How the data were processed

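DNA from 23 monkeys was digested, bisulfite converted and sequenced, per the labels' protocols. Reads were handled with Bismark 0.11.1 and hg19, per the submitters' processing notes. The authors deposited methylation levels as a fraction, rounded to 2 decimals, with no read counts. No source used here gives a coverage filter. Levels were multiplied by 100. Depth is unknown, so no interval or floor was computed. Macaque reads were placed on the human build, where species differences can alter a site.

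Groups were taken from the first letter of the sample title. Tested positions had values in at least 20 animals and a range of at least 10 points. When animals were left out, at most 3 of the remaining ones could lack a value. Regions had a range of at least 5 points, and an animal needed values at 50% of a region's positions. Limma 3.58.1 in R 4.3.3 with data.table, version 1.17.8, fitted group, age and score with a variance trend, Benjamini-Hochberg adjustment over all units and missing values left out. The fit was tested on simulated data and against limma's own functions. Values per animal were tested with 100000 resamples. Bands came from circlize 0.4.16; figures used matplotlib 3.10.9 in Python 3.11.15. No hg19 gene annotation or genome was used, so no gene names or sequences are given.

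The named items follow a rule: the first 10 positions and first 10 regions by p, the 5 genotype-like positions with the smallest p, and the 5 longest leading regions. The groups, rules and lists were chosen with earlier results of these data known. Alternatives covered scale, filters, covariates, regional means and omitted animals.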

Additional observations from a re-analysis of the deposited data

How the results depend on the processing

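Chromosome 18, 3879216 passed (limma, 1 position in each case) with hemisphere as a further term (adjusted p = 0.0451), at positions complete in all animals (0.0404), with a range of at least 20 points (0.0491) and without r09081 (0.00375), and did not pass otherwise (up to 0.66, without BF36). With single animals left out, called positions thus ran from 0 to 1, leading positions from 942 to 1448, called regions stayed at 0 and leading regions ran from 103 to 172. Complete positions gave 322 leading positions and complete regions 46, from fewer units tested. The share of leading positions higher in r animals was 55.8% with no range filter. It ran from 59.3% to 70% with single animals left out. The middle-level deviation changed sign without BD60 (0.175 points) and without r09006, r09060 and BD60 (0.221), as did, in the last set, missing values (-0.107 points) and values at 0 or 100% (-0.0351 points). The distance difference at genotype-like positions was 0.389 points with all 23 animals and 0.496 with a gap of at least 40 points. Both had an unadjusted permutation p under 0.05 (0.0314 and 0.026), and no adjusted p was computed for them. That gap left 1.2% of leading and 0.268% of tested positions genotype-like. The named positions and regions kept their direction under every alternative that tested them, which was nearly fixed in advance because the alternatives share most animals. Causes were not tested. No paired analysis was possible because each animal belongs to 1 group and the numbers within groups follow accession order. Without read counts, the limit set by depth is unknown.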

Other observations

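Without r09006 and r09060, the closest pair of the 21 animals at genotype-like positions was BF10 and BF36, at 21.2 points. It was followed by r09051 and r09061 at 21.6 and r09024 and r09078 at 22 points. BF10 and BF36 were 7.91 points apart at the other tested positions, where BD60 and r09024 were the closest pair at 5.92 points. Of the 10 closest pairs at genotype-like positions, 8 joined animals with the same letter, and the others were BD94 with r09012 and BF36 with r09061. Among all pairs of these 21 animals, 45 lay within r, 55 within B and 110 between the groups. Several of the 10 pairs include r09061, which had the smallest mean distance to the other animals (24 points), so they are not independent.

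The only tested position without overlap between the groups, singled out for that reason, lies on chromosome 10 at 130339532 (10q26.2). Its levels were low in all animals, from 4% to 19% in the 11 r animals with a value and from 0 to 3% in the 11 B animals. The difference was 5.74 ± 1.58 points (SE, n = 22; limma adjusted p = 0.941).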
